A study of Mus musculus with 10 samples.

Results

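This report describes 10 genes that mark microglia, the resident macrophages of the brain, in the mouse hippocampus. They are Aif1, Cd68, Cx3cr1, Tmem119, P2ry12, Csf1r, Itgam, Trem2, Tyrobp and C1qa. The members were found through the RefSeq accession that the array design gives each probe, and they make up 10 of the 23462 genes named in this way. They had 14 probes, of which 12 were tested, and 9 of the 10 genes had at least 1 tested probe. P2ry12 was the gene without one, because its spot was marked as an outlier on 6 of the 10 arrays.

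Total RNA of whole hippocampus was hybridised to 1-colour arrays, with 5 arrays of PGC-1αf/f mice and 5 of nPGC-1α mice. PGC-1αf/f mice carry a PGC-1α transgene in the Rosa26 locus that is kept silent by a floxed PGK-neo-STOP cassette, and no Cre. nPGC-1α mice carry the same transgene together with Eno2-Cre, in which the promoter of neuron-specific enolase drives the recombinase in neurons and the cassette is removed. Both groups were on a C57BL/6 background, were labelled as males of 12 weeks and had no carotid surgery. The labels give neuron as the cell type, but the RNA came from whole tissue, and all 10 microglia genes had a probe well above background on all 10 arrays. The comparison asks whether microglial transcripts differ when PGC-1α is overexpressed in neurons, a cell type that is not microglia. In such bulk samples, fewer microglia and less RNA per microglial cell cannot be told apart.

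Microglia survey the healthy brain with motile processes and express a set of genes often called homeostatic. Cx3cr1 is the receptor for the neuronal chemokine Cx3cl1, P2ry12 senses ADP, Csf1r receives the survival signals Csf1 and Il34, and Tmem119 is a membrane protein widely used to tell microglia from other macrophages. The other members are expressed by microglia at rest too and are usually read as rising with activation. They are Aif1 (Iba1, an actin-bundling calcium-binding protein), Cd68 (a lysosomal glycoprotein), Itgam (CD11b, a subunit of the complement receptor), Trem2 (a lipid receptor), Tyrobp (DAP12, the adaptor through which Trem2 signals) and C1qa (a chain of the first complement component). The split into 4 homeostatic and 6 activation-associated genes follows this usage.

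Several facts of the arrays touch every value given here. In PGC-1αf/f, 74.5% to 81.5% of the gene spots of an array stood well above background, against 67.2% to 73.4% in nPGC-1α, where the estimated noise was also higher (10.71 to 20.87 against 5.16 to 8.98 signal units). Slide 1 held replicates 1 to 4 of each group, and slide 2 held replicate 5 of each. On slide 1, the PGC-1αf/f arrays all lay in row 1 and the nPGC-1α arrays all in row 2. The arrays of slide 2 lay in row 1. The groups shared no row of slide 1, so an effect of row on noise, detection or the differences was not tested. Although every mouse was labelled male, Y-linked transcripts were detected on 4 of the 10 arrays only, 1 of PGC-1αf/f (replicate 1) and 3 of nPGC-1α (replicates 1, 3 and 5). Ppargc1a, the gene that was to be overexpressed, was at 2.20 ± 0.08 in PGC-1αf/f and 2.20 ± 0.11 in nPGC-1α on the log2 scale (SD, n = 5 each, limma adjusted p 0.99), so the signal of this probe did not set the groups apart. Whether the probe reads the transgene's transcript is not known, and all directions rest on the labels. By Western blot, the study reported up-regulated PGC-1α protein in nPGC-1α mice, and it showed eGFP from the transgene in neurons. Whether those mice were the ones on the arrays is not given.

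The promoters of 3 members are shown because the levels of Aif1 and Trem2 correlated over the arrays (r 0.78, rho 0.54, not past the adjusted threshold, and r 0.32 without PGC-1αf/f replicates 1 and 2) and Cd68 is a microglial marker that the study stained in tissue. Each sequence runs from 250 bases before to 50 after the gene start, 5′ to 3′ on the coding strand, and comes from RefSeq on assembly GRCm38.p6. Capitals mark GAGGAA or, read from the other strand, TTCCTC, the core that PU.1, the master transcription factor of myeloid cells, prefers.
Aif1, chr17:35176003-35176302, minus strand: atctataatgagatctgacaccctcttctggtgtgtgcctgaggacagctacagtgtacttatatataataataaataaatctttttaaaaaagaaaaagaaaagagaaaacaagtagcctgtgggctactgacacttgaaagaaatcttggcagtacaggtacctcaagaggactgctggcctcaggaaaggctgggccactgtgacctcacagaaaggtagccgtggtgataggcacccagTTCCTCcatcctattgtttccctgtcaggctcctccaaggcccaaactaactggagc
Trem2, chr17:48346151-48346450, plus strand: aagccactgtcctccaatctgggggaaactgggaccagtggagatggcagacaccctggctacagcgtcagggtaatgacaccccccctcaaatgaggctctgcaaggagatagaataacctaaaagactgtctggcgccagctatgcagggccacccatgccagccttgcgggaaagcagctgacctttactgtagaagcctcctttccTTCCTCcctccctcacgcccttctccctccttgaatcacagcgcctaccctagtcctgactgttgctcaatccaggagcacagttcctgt
Cd68, chr11:69666121-69666420, minus strand: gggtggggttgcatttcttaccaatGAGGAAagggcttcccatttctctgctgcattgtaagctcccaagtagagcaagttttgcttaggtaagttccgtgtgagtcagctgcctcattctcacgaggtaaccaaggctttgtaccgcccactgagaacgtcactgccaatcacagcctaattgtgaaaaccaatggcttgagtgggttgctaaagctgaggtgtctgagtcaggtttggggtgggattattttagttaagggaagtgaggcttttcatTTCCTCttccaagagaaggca
Promoters were found for 6 of the 10 members (Aif1, Cd68, Cx3cr1, Itgam, P2ry12 and Trem2). The core was present in those of 4 (Aif1, Cd68, Itgam and Trem2) and not in these windows of Cx3cr1 and P2ry12. It was present in 28.3% of the 32851 promoters in the table, on either strand. A match describes the letters of the window and is not a measured binding site.

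No microglia gene passed the test between the groups. Levels are given in log2 units relative to the 75th percentile of each array, and a negative difference means a lower level in nPGC-1α. At an adjusted p of 0.05 by limma, 0 of the 9 tested genes were called, with adjusted p from 0.407 to 0.995, beside 0.00255% of all 39142 probes. At an unadjusted p of 0.05, 1 gene, Tmem119, was lower and 0 were higher, beside 8.52% of all probes lower and 3.39% higher. These shares depended on the processing, with 7.18% lower and 12.4% higher among 54980 probes without a filter on dim probes, and 7.17% lower and 4.49% higher under normexp with quantile normalisation. Without the filter, 0 of the 9 genes passed an unadjusted p of 0.05. By the exact Mann-Whitney test, the test that the methods name for 2 groups, 2 genes (Tmem119 and Csf1r) were lower at an unadjusted p of 0.05 and 0 passed after adjustment, beside 5.43% of all probes lower and 2.11% higher in that test. The groups did not overlap for 1 of the 9 genes, again Tmem119, beside 2.74% of the 34000 probes with a value on every array. The median difference of the 9 genes was -0.14, beside -0.04 over all tested probes, of which 59.2% were negative. The difference was negative for 6 genes and positive for 3.

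**Figure D1:**
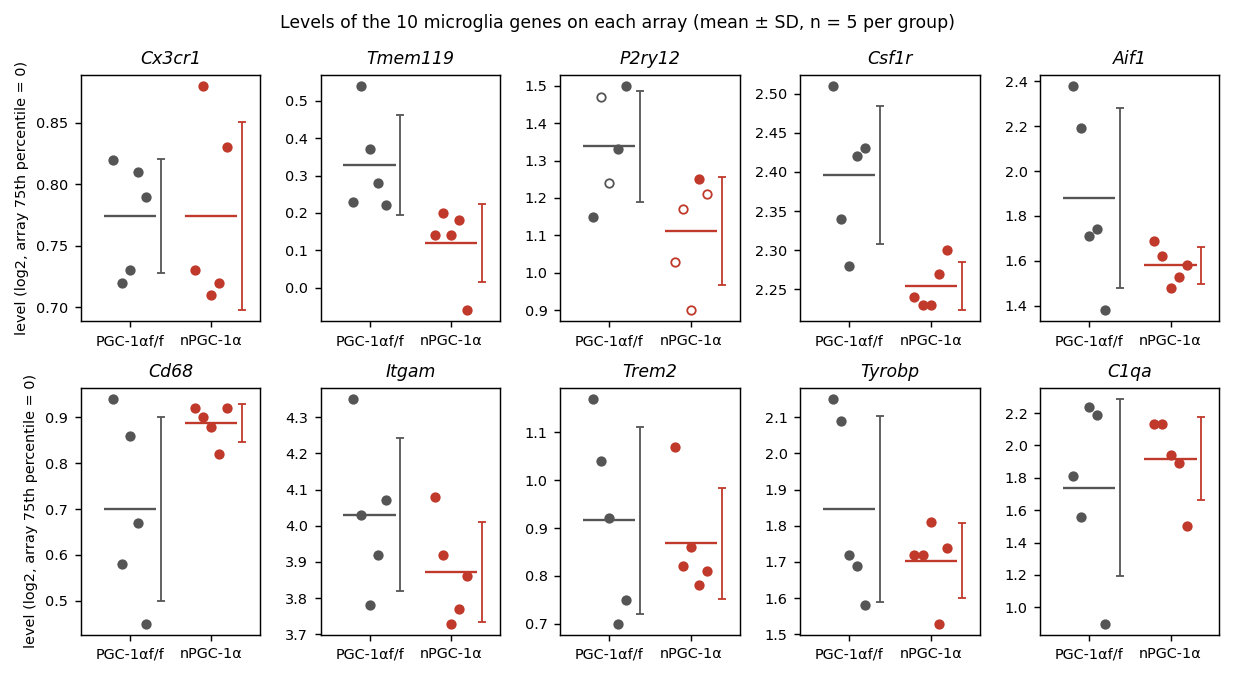
Level of each of the 10 microglia genes on each array, in log2 units with the 75th percentile of the array at 0, for the 5 PGC-1αf/f (grey) and 5 nPGC-1α (red) arrays, replicates 1 to 5 from left to right; lines give the mean, bars the SD, and each panel has its own axis. Open circles are spots marked as outliers, which occur in the P2ry12 panel only, and the groups do not overlap for Tmem119, at 0.22 to 0.54 against -0.06 to 0.20.

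Among the homeostatic genes, the clearest difference was that of Tmem119. Its probe A_51_P418116 was at 0.23, 0.54, 0.37, 0.28 and 0.22 on replicates 1 to 5 of PGC-1αf/f and at 0.14, 0.20, 0.14, 0.18 and -0.06 on replicates 1 to 5 of nPGC-1α. Every nPGC-1α array was below every PGC-1αf/f array, although the lowest PGC-1αf/f and the highest nPGC-1α value lay close together. The means were 0.33 ± 0.13 and 0.12 ± 0.11 (SD, n = 5 each). The difference was -0.21 (SE 0.09, 95% interval -0.42 to -0.01), a 1.16-fold lower signal. The exact permutation p, two-sided, was 0.00794, the smallest that 5 against 5 arrays can give, while the limma p was 0.0437 unadjusted and 0.407 adjusted over all probes. On the 8 arrays of slide 1 the difference was -0.19, and between the 2 arrays of slide 2 it was -0.29. With the detection of Y-linked transcripts as a covariate, the difference was -0.16 and the unadjusted limma p was 0.132. The unadjusted p stayed below 0.05 without PGC-1αf/f replicate 1 or replicate 5, and not without any 1 of the other 8 arrays.

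Csf1r had 2 tested probes. The brighter, A_55_P2025078, was at 2.51, 2.34, 2.28, 2.42 and 2.43 on the PGC-1αf/f arrays and at 2.24, 2.23, 2.23, 2.27 and 2.30 on the nPGC-1α arrays. All 5 nPGC-1α arrays were below the PGC-1αf/f mean, and the groups overlapped only in that nPGC-1α replicate 5 was above PGC-1αf/f replicate 3. The difference was -0.14 (SE 0.08, 95% interval -0.31 to 0.02, limma adjusted p 0.487), and it was -0.06 under normexp with quantile normalisation. The second probe, A_55_P2025073, did not show it, with 0.85 ± 0.07 and 0.83 ± 0.13 (SD, n = 5 each), a difference of -0.02 and a limma adjusted p of 0.928. Whether the probes of this growth factor receptor differed from each other was not tested.

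Cx3cr1 did not separate the groups. Its brighter probe, A_55_P2007964, was at 0.82, 0.72, 0.73, 0.81 and 0.79 on the PGC-1αf/f arrays and at 0.73, 0.88, 0.71, 0.72 and 0.83 on the nPGC-1α arrays. The ranges lay over each other, and the difference was 0.00 (SE 0.08, limma adjusted p 0.995), with a 95% interval of -0.16 to 0.17. A second probe, A_52_P99810, had 3 and 4 values after outlier spots were left out, with a difference of 0.12 and an interval of -0.38 to 0.62.

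P2ry12 had 3 values in PGC-1αf/f and 1 in nPGC-1α when outlier spots were left out, too few for the test. With every spot kept, probe A_51_P338878 was at 1.15, 1.47, 1.24, 1.33 and 1.50 in PGC-1αf/f and at 1.03, 1.17, 0.90, 1.25 and 1.21 in nPGC-1α. The nPGC-1α arrays tended to lie lower, with overlap between 1.15 and 1.25. The means were 1.34 ± 0.15 and 1.11 ± 0.15 (SD, n = 5 each), a difference of -0.23 (limma adjusted p 0.426 in a fit that kept outlier spots). A fit to the deposited log2 table gave the same difference, -0.23 with a limma adjusted p of 0.421.

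**Figure D2:**
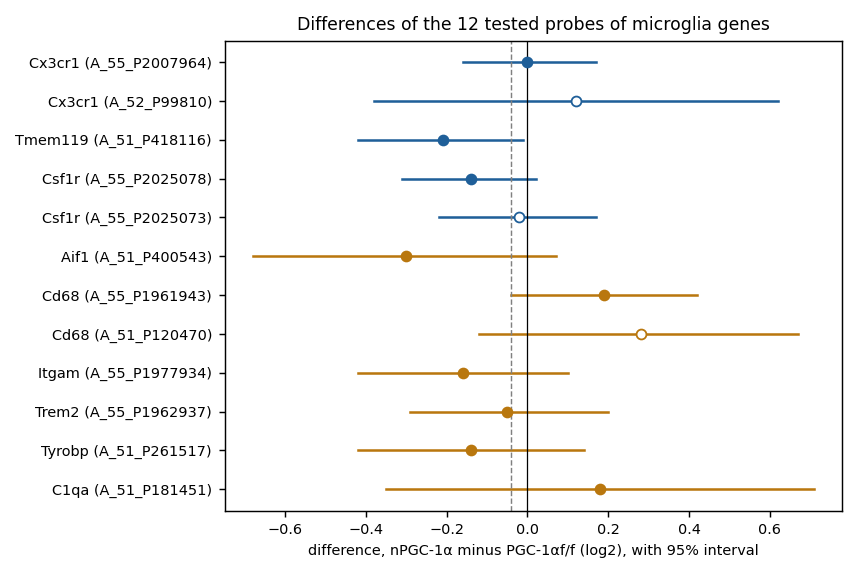
Difference of each of the 12 tested probes, nPGC-1α minus PGC-1αf/f in log2 units, with its 95% interval from limma; filled points are the probe that stands for the gene, open points the other probes, blue the homeostatic and orange the activation-associated genes. The dashed line is the median of all tested probes, -0.04, and the interval of Tmem119, -0.42 to -0.01, is the only one that does not reach 0.

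Among the activation-associated genes, Aif1, Itgam, Trem2 and Tyrobp had negative differences and Cd68 and C1qa positive ones, and none passed the test at either an adjusted or an unadjusted p of 0.05. Aif1 had the largest difference of the 9 genes. It was at 2.38, 2.19, 1.71, 1.74 and 1.38 on the PGC-1αf/f arrays and at 1.69, 1.62, 1.48, 1.53 and 1.58 on the nPGC-1α arrays. PGC-1αf/f replicates 1 and 2 were the highest of all arrays and PGC-1αf/f replicate 5 the lowest, while the nPGC-1α arrays lay in a narrow range between them. The means were 1.88 ± 0.40 and 1.58 ± 0.08 (SD, n = 5 each). The difference was -0.30 (SE 0.17, 95% interval -0.68 to 0.07, limma adjusted p 0.511, exact permutation p 0.175). It was -0.43 on slide 1 and 0.19 between the 2 arrays of slide 2, and -0.18 without PGC-1αf/f replicate 1.

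Cd68 was the member whose direction opposed that of Aif1 most clearly. Probe A_55_P1961943 was at 0.94, 0.58, 0.86, 0.67 and 0.45 on the PGC-1αf/f arrays and at 0.92, 0.90, 0.88, 0.82 and 0.92 on the nPGC-1α arrays. All 5 nPGC-1α arrays were above the PGC-1αf/f mean, and PGC-1αf/f replicate 1 was above all of them. The means were 0.70 ± 0.20 and 0.89 ± 0.04 (SD, n = 5 each), a difference of 0.19 (SE 0.10, 95% interval -0.04 to 0.42, limma adjusted p 0.496, exact permutation p 0.0952). The second probe, A_51_P120470, had the same direction, 0.28 (SE 0.18, limma adjusted p 0.569), again with all 5 nPGC-1α arrays above the PGC-1αf/f mean. On both slides the Cd68 difference was positive, 0.12 on slide 1 and 0.47 on slide 2.

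C1qa had the largest SD of the 9 genes in the PGC-1αf/f group, 0.55. It was at 1.81, 1.56, 2.24, 2.19 and 0.90 on those arrays and at 2.13, 2.13, 1.94, 1.89 and 1.50 on the nPGC-1α arrays. PGC-1αf/f replicate 5 was far below the others and nPGC-1α replicate 5, hybridised on the same slide, was the lowest of its group. The difference was 0.18 (SE 0.24, limma adjusted p 0.787), with a 95% interval of -0.35 to 0.71. Without PGC-1αf/f replicate 5 it was -0.03, so its direction rested on that array.

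Itgam, Tyrobp and Trem2 had smaller negative differences. Itgam probe A_55_P1977934 was at 4.35, 4.03, 3.78, 3.92 and 4.07 in PGC-1αf/f and at 4.08, 3.92, 3.73, 3.77 and 3.86 in nPGC-1α, a difference of -0.16 (SE 0.12, limma adjusted p 0.612). The groups overlapped widely, and the difference was -0.03 under quantile normalisation, 0.01 under normexp with quantile normalisation and -0.08 without PGC-1αf/f replicate 1. Another Itgam probe, A_55_P1977926, was left untested because it lay near background, rising well above it on 4 arrays of PGC-1αf/f and 2 of nPGC-1α. Its means were -6.48 in PGC-1αf/f and -6.24 in nPGC-1α, far below the 4.03 and 3.87 of A_55_P1977934. Why the levels of these probes lay so far apart was not tested.

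Tyrobp was at 2.15, 2.09, 1.72, 1.69 and 1.58 in PGC-1αf/f and at 1.72, 1.72, 1.81, 1.53 and 1.74 in nPGC-1α, a difference of -0.14 (SE 0.13, limma adjusted p 0.683). As with Aif1, PGC-1αf/f replicates 1 and 2 lay above all other arrays, and the difference was -0.06 without replicate 1, -0.08 without replicate 2 and -0.09 without nPGC-1α replicate 4. Trem2, the receptor that needs Tyrobp to signal, was at 1.17, 1.04, 0.92, 0.70 and 0.75 in PGC-1αf/f and at 1.07, 0.82, 0.86, 0.78 and 0.81 in nPGC-1α. Its difference was -0.05 (SE 0.11, limma adjusted p 0.885), and it was 0.02 without PGC-1αf/f replicate 1. Receptor and adaptor both had negative differences on slide 1, -0.08 for Trem2 and -0.21 for Tyrobp, and positive ones between the arrays of slide 2, 0.07 and 0.17.

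Homeostatic and activation-associated genes were then set against each other. Each gene was centred on its mean over the 10 arrays, and the deviations were averaged per array over the 3 tested homeostatic and the 6 activation-associated genes. The homeostatic mean was 0.02 to 0.09 in PGC-1αf/f and -0.08 to -0.01 in nPGC-1α, a difference of -0.12 without overlap. Tmem119, itself without overlap, and the brighter Csf1r probe contributed to it, and Cx3cr1, at 0.00, did not. The same mean over the 14 further homeostatic genes described below overlapped, at -0.05 to 0.11 in PGC-1αf/f and -0.11 to 0.10 in nPGC-1α. How often a mean of 3 other genes would not overlap was not tested. The activation-associated mean was -0.31 to 0.31 in PGC-1αf/f and -0.11 to 0.11 in nPGC-1α, a difference of -0.05. Homeostatic minus activation-associated was 0.04 ± 0.21 in PGC-1αf/f and -0.04 ± 0.09 in nPGC-1α (SD, n = 5 each). This difference of -0.07 was smaller than the SD of either group. Leaving out PGC-1αf/f replicate 5 gave 0.01 and leaving out PGC-1αf/f replicate 1 gave -0.14, and the value was -0.04 without nPGC-1α replicate 1, -0.01 on slide 1 and 0.00 with Y-linked class as a covariate. No test was run on these means of chosen genes.

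**Figure D3:**
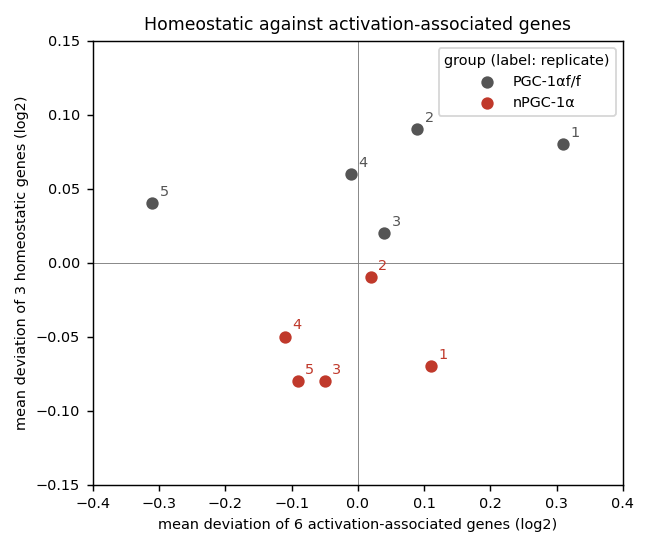
Mean deviation of the 3 tested homeostatic genes (vertical) against that of the 6 activation-associated genes (horizontal) on each of the 10 arrays, in log2 units from the 10-array mean of each gene; numbers are replicates. The groups do not overlap along the vertical axis, at 0.02 to 0.09 against -0.08 to -0.01, to which Tmem119 and Csf1r contributed. They overlap along the horizontal one, where PGC-1αf/f replicates 1 and 5 are at 0.31 and -0.31.

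The larger part of the variation lay between mice of the PGC-1αf/f group. The SD was larger in PGC-1αf/f than in nPGC-1α for 8 of the 9 genes, the exception being Cx3cr1, beside 65.5% of 34000 probes. PGC-1αf/f replicate 1 was the highest array for 6 genes (Csf1r, Aif1, Cd68, Itgam, Trem2 and Tyrobp), and PGC-1αf/f replicate 5 was the lowest for 3 (Aif1, Cd68 and C1qa). Replicate 1 was the only PGC-1αf/f array with detected Y-linked transcripts, and 10.52% of its gene spots were marked as outliers. On nPGC-1α replicate 1, which also had Y-linked transcripts and 11.63% outlier spots, the mean deviation of the 9 genes was 0.05, against 0.23 on PGC-1αf/f replicate 1. The part of either in the levels of the microglia genes was not tested.

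**Figure D4:**
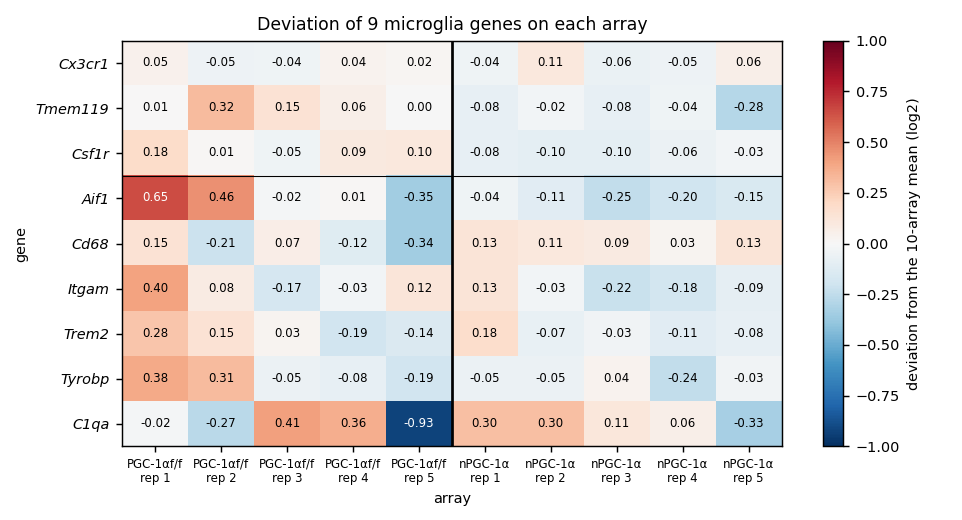
Deviation of each of the 9 tested microglia genes (rows) from its 10-array mean, in log2 units, on each array (columns), with the value printed in each cell; red is above and blue below the mean. The widest contrast is within the PGC-1αf/f group, between replicate 1, with a mean deviation of 0.23 over the 9 genes, and replicate 5, with -0.19.

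The levels of the 9 genes were then correlated over the 10 arrays. Of their 36 pairs, 0 passed a permutation test after adjustment over the 36 pairs, by Pearson's r or Spearman's rho, and 27 values of r were positive. The highest was that of Aif1 with Tyrobp, r 0.90 and Spearman rho 0.52 (permutation p 0.00364 and 0.134, adjusted 0.112 and 0.598), which rested on PGC-1αf/f replicates 1 and 2, since r was 0.32 without them. Trem2 and its adaptor Tyrobp correlated at r 0.79 and rho 0.78 (permutation p 0.00815 and 0.0106, adjusted 0.112 and 0.382), and r was 0.83 without the 2 arrays farthest from the Trem2 median. Within the groups, with each array taken as the deviation from its group mean, r was 0.89 for the first pair and 0.79 for the second. The lowest correlation, -0.52, was that of Tmem119 with Cd68.

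The genes whose array-to-array pattern was most like the mean of the members were searched among 14883 genes, by the Pearson correlation of deviations from the group means over the 10 arrays. They were Cyba (a subunit of the phagocyte NADPH oxidase), Ly86 (a secreted partner of the receptor CD180), 4930568A12Rik and Sphk1 (a sphingosine kinase), each at 0.97, and Prss48 (a serine protease) at 0.96. All points share the same 10 arrays, and these values are descriptions. The 50 further microglia genes that were searched ranged from -0.63 for Cebpa to 0.93 for Cd52, with a median of 0.47. Among all 14883 genes, Cd52 ranked 39, but a listed gene at 0.47 ranked only 3970. Among the genes of disease-associated microglia with a value on every array, only Cd9, at -0.31, was negative. The others were positive, up to Cd52, and include Itgax, well above background on 0 nPGC-1α arrays. Their lowest positive value, 0.06, ranked 8583 of the 14883 genes, so most of all genes were positive too. The further homeostatic genes lay on both sides of 0, from -0.59 for Slc2a5 to 0.5.

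Further microglia genes did not pass the test either, with 0 adjusted calls by limma in any list. Of 14 tested further homeostatic genes, 1 was lower at an unadjusted p of 0.05, the orphan receptor Gpr34, beside 8.52% of all probes. It was at 0.49 ± 0.20 in PGC-1αf/f and 0.21 ± 0.17 in nPGC-1α (SD, n = 5 each), a difference of -0.28 (limma adjusted p 0.394). All 5 nPGC-1α arrays were below the PGC-1αf/f mean of Gpr34, and its other probe differed by -0.20. Siglech, a lectin of microglia, differed by -0.28 and the fructose transporter Slc2a5 by -0.22 (limma adjusted p 0.558 and 0.48), with -0.01 at the other Siglech probe. The Siglech probe at -0.28 had 3 values in PGC-1αf/f and 5 in nPGC-1α. The median of the list was -0.02, with 7 genes negative and 7 positive.

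Of 17 tested disease-associated genes, 0 passed an unadjusted p of 0.05, and their median difference was 0.04. Lyz2, a lysozyme of myeloid cells, differed by 0.68 (SE 0.65), with 4 values in each group. Itgax, the integrin CD11c, stood well above background on 5 arrays of PGC-1αf/f and 0 of nPGC-1α. It entered the test through the PGC-1αf/f group only, so no difference is given for it. The count of 17 and the median of 0.04 still include it. Of 7 genes of complement and its receptors, 1, C4b, was lower at an unadjusted p of 0.05, beside 8.52% of all probes. Its difference was -0.49 (SE 0.19, limma p 0.024 unadjusted and 0.341 adjusted, exact permutation p 0.0714). The groups overlapped, and the second C4b probe differed by -0.26. The sister chains of C1qa had differences of opposite sign, 0.22 for C1qb and -0.12 for C1qc, and C3 differed by -0.12 (limma adjusted p 0.775, 0.724 and 0.887).

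Signalling partners, regulators and ligands were compared in the same way. Of 10 genes around the immunoreceptor adaptors, 0 passed an unadjusted p of 0.05, and the largest differences were 0.29 for the Fc receptor Fcgr3 and 0.25 for the receptor Cd300lf, whose other probe differed by -0.27. The transcription factors Ikzf1 and Irf5, both of lymphoid and myeloid cells, differed by -0.45 and -0.21 (limma adjusted p 0.511 and 0.605), and the second Ikzf1 probe by 0.04. Irf5 had 3 values in PGC-1αf/f and 4 in nPGC-1α. Runx1, Mef2c, Cebpa and Irf8, of the same list of transcription factors, had positive differences of 0.14, 0.13, 0.06 and 0.02. This Mef2c probe had 4 values in PGC-1αf/f and 3 in nPGC-1α. The second Mef2c probe differed by 0.68 (limma adjusted p 0.467) and the second Runx1 probe by 0.10. Of 5 ligands of microglial receptors, 0 passed, with 0.21 for Cx3cl1, the ligand of Cx3cr1, and 0.16 for Cd200, which restrains microglia through its receptor.

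**Figure D5:**
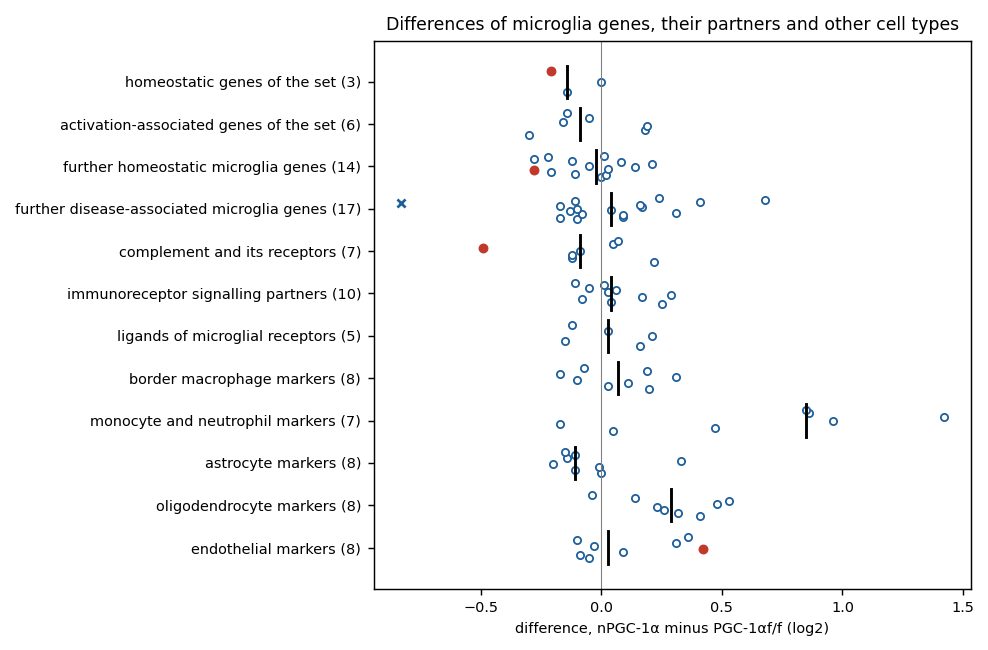
Differences of single genes, nPGC-1α minus PGC-1αf/f in log2 units, for the 9 tested microglia genes, further microglia genes and markers of other cell types, with the number of tested genes in brackets; red points pass an unadjusted limma p of 0.05, the cross is Itgax, which was not well above background in nPGC-1α, and bars are list medians. The microglia lists shown have medians from -0.14 to 0.04, while the monocyte and neutrophil markers have a median of 0.85.

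Markers of other cells that could carry some of these transcripts were set beside the members. Blood monocytes and neutrophils also express Itgam and Tyrobp, and of their 7 tested markers 0 passed an unadjusted limma p of 0.05, but the median difference was 0.85. The neutrophil genes Retnlg, S100a8 and S100a9 differed by 1.42, 0.86 and 0.85, with wide spread, S100a8 lying between -1.92 and 2.09 in PGC-1αf/f alone. The monocyte markers Ccr2 and Ly6c2 differed by 0.05 and -0.17. Plac8 and Cxcr2, the remaining tested markers of this list, differed by 0.96 and 0.47 (limma adjusted p 0.497 and 0.599). Of the 7 markers, 6 had positive differences and 1 a negative one. The mean deviation of the 7 markers ranged from -1.55 to 0.97 in PGC-1αf/f and from -0.55 to 0.91 in nPGC-1α. All 7 were well above background on all 10 arrays.

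Border macrophages of the meninges and vessels also express Cd68, Csf1r and C1qa. Of their 8 markers, 0 passed an unadjusted p of 0.05, with a median difference of 0.07. Their mean deviation was 0.47 on PGC-1αf/f replicate 1 and -0.83 on PGC-1αf/f replicate 5, the arrays that were the highest and the lowest for several members, and it was -0.23 to 0.36 on the nPGC-1α arrays. All 8 were well above background on all 10 arrays. The part of border macrophages or blood cells in the levels of the members was not tested. The median difference was -0.11 for 8 astrocyte, 0.29 for 8 oligodendrocyte and 0.03 for 8 endothelial markers. Of these, Kdr (endothelium, 0.42) was higher at an unadjusted limma p of 0.05, beside 3.39% of all probes, and 0 passed after adjustment.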

How the data were processed

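Total RNA of hippocampus was hybridised to 1-colour (Cy3) Agilent arrays, 1 array per sample and 5 per group, and groups came from the labels. The methods call the controls littermates without giving which mice shared a litter, so p-values measure the spread between these samples. The deposited scanner files, written by Feature Extraction 11.5.1.1, hold a processed intensity per spot, background-subtracted and not normalised between arrays. A table that the authors made with GeneSpring holds log2 values of 41606 probes and was used as an alternative.

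Control and outlier-marked spots were dropped, repeated spots of a probe averaged, and each array centred on the log2 of its 75th percentile. A probe was tested (39142 of 56605) if 1 group had it well above background throughout and each group had at least 3 values. The number of arrays limits the precision. Symbols were assigned through RefSeq accessions (GRCm38.p6) for 33767 probes. The array's own build was not used, so probes carry no coordinates. The brightest tested probe stood for its gene.

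Groups were compared with lmFit and eBayes of limma 3.58.1 (R 4.3.3), two-sided, without covariates, with Benjamini-Hochberg adjustment over all probes kept, after the test was tried on simulated data. Tables were handled with Python 3.11.15, pandas 2.3.3 and scipy 1.17.1. Named genes were the 10 members, list genes past an unadjusted p of 0.05 and the 2 largest differences per microglia list otherwise, and the 5 genes most like the members' mean. C3, Kdr, Retnlg, S100a8, S100a9, Ccr2, Ly6c2, Plac8, Cxcr2, Cd52, Cd9, Cebpa, Runx1, Mef2c and Irf8 were named after their values were seen. Some genes, and the summaries of 2 lists that held them, are not reported here. The members and lists were chosen with earlier results of these data known. Alternatives were other scaling and background correction (normexp, offset 50, on median pixel intensity), the authors' table, 2 other filters for dim probes, outlier spots kept, slide, replicate number, Y-linked class, the exact Mann-Whitney test, the mean over probes, and leaving out arrays.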

Additional observations from a re-analysis of the deposited data

Results flagged for a closer look

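Of 32 groups of 5 values of member probes or member means that were examined, 3 held an array far from the other 4, where chance gives about 1 in 20. Tmem119 was at -0.06 on nPGC-1α replicate 5, while the other nPGC-1α arrays were at 0.14 to 0.20. Trem2 was at 1.07 on nPGC-1α replicate 1, while the others of its group were at 0.78 to 0.86. The near-background Itgam probe A_55_P1977926 was at -7.20 on PGC-1αf/f replicate 5, while the others were at -6.43 to -6.12.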

How the results depend on the processing

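The number of members past an adjusted p of 0.05 was 0 under all 24 alternatives, although over all probes the calls went from 0 higher and 1 lower to 3871 higher and 748 lower without a filter on dim probes. The number past an unadjusted p of 0.05, 1 as reported (Tmem119), was 0 under normexp with quantile normalisation, without a filter on dim probes and on the arrays without Y-linked transcripts, and 2 by the exact Mann-Whitney test. It was 1 with other genes, Aif1 lower with Y-linked class as a covariate and on slide 1 alone, and Cd68 higher without replicate 1 of both groups. Leaving out 1 array at a time gave 0 to 2. It was 2 without PGC-1αf/f replicate 1 (Tmem119 lower, Cd68 higher) or replicate 5 (Tmem119 and Aif1 lower), and 0 without any 1 of the other 8 arrays. The median difference of the members was -0.01 under normexp with quantile normalisation and -0.17 to -0.06 with 1 array left out. Itgam was at 0.01 under normexp, Trem2 at -0.10 to 0.02 and C1qa at -0.03 to 0.30 with 1 array left out. Where no array or gene was removed, the cause of a change was not tested. The Tmem119 difference was -0.24 to -0.16 over its 23 alternatives. With replicate number as a paired term (replicate block), the unadjusted count was 1 (Tmem119) and the adjusted count 0. Same-numbered arrays correlated at 0.08 to 0.36 in their deviations, with numbers 1, 2 and 5 correlating best with their own number and 3 and 4 crosswise. Same-numbered arrays also shared a slide and, for numbers 1 to 4, a slide column. The labels name no pairing and 1 pair was below 0.1, so the numbers were not taken as pairs of mice. The share of dim spots and the 5 arrays per group limit these comparisons, whose 95% intervals spanned 0.165 to 0.53 on either side.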
